A study of Homo sapiens with 24 samples.

Results

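The 10 genes described here form the core of the canonical Wnt and beta-catenin pathway: the co-receptor LRP6, the Dishevelled proteins DVL1 and DVL3, the destruction complex members APC, AXIN1, CSNK1A1, GSK3A and GSK3B, and the nuclear effectors CTNNB1 and TCF7L2. They were chosen by name from 64486 annotated genes, with earlier results of these data known, and they held 2077 of the 1828222 splicing measurements kept. Of these, 654 were exon-intron boundaries and 1423 were spliced junctions. A junction measured at both its 5′ and its 3′ splice site was counted once for each, here and below. Splicing was measured by RNA-seq of poly(A) RNA from HCT116, a human colorectal carcinoma cell line, to ask how a Y36C change in PHF5A alters the response to E7107. E7107 is a pladienolide derivative that inhibits SF3b, the part of the U2 snRNP that recognises the branch point, and PHF5A is an SF3b subunit. The parental cells carried a lentiviral cDNA of either wild-type (WT) or Y36C PHF5A, so both lines were blasticidin-selected pools that overexpressed the introduced PHF5A and kept their endogenous gene. Each line was treated with DMSO, the solvent control, or with E7107, which gave 4 groups of 6 samples, named here by line and treatment. The labels do not say that the 6 samples came from separate cultures, so the p-values measure the spread between samples, which may be technical.

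In cells without a Wnt ligand, the APC and AXIN1 scaffolds hold beta-catenin for phosphorylation by CSNK1A1 and the GSK3 kinases, and the phosphorylated protein is degraded. Ligand binding to Frizzled and LRP6 recruits Dishevelled, the destruction complex is inhibited, and beta-catenin accumulates and acts with TCF7L2 on target genes. The pathway is a main driver of colorectal cancer, where loss of APC or mutation of CTNNB1 is frequent, and HCT116 carries a CTNNB1 mutation.

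Each value was a percent spliced in (PSI), the share of the reads at one splice site that used one outcome. The outcomes were the spliced junctions of that site and its boundary, meaning reads that ran on across it unspliced, and they summed to 100% wherever the site had reads. A high boundary PSI at an intron of the reference transcript was read as retention of that intron. At an alternative site that lies within an exon, the boundary instead counts reads of the longer exon. PSI says nothing of how much transcript a gene made, and because read numbers were not given, the depth behind each value is unknown and no counting interval is given. A change was called where the adjusted p of limma on the log odds of PSI was 0.05 or less, and changes are given in percentage points of PSI beside the log odds change (natural log). A measurement was tested where its site had reads in every sample compared and its PSI was above 0 in at least 6 of them. Retention of a gene was its mean PSI over every boundary with reads in all 24 samples, with no filter on PSI, for the 10429 genes with at least 4 such boundaries.

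The number of sites with reads had medians of 338114.5 and 336964.5 in the DMSO groups of WT and Y36C cells and 282962 and 330691.5 in their E7107 groups. The WT E7107 samples reached at most 283782 sites, while every sample of the other groups had at least 328615. The lower number in WT E7107 moved with the retention described next, and its part in those results was not tested. Of 7 epithelial markers, 5 had a site with reads in all 24 samples and 2, VIL1 and CDH17, had none. Of 8 markers of other cell types, 2 had such a site, COL1A1 at 85 of its 96 listed sites and DES at 2 of 10. The highest number among the epithelial markers was 30, in CDH1. PECAM1, also among the markers of other cell types, was not matched to the annotation. No pair of samples held identical values.

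Several introns and exons carry the results below, and their GRCh37 sequences are shown 5′ to 3′ on the strand of the gene. The first set holds the intron with the largest rise that was seen in Y36C cells and not in WT cells (DVL3 intron 5, chr3:183882720-183882900, plus strand), a short intron retained in both lines (DVL1 intron 12, chr1:1273817-1273901, minus strand), and its neighbour of the same length that was retained in WT cells (DVL1 intron 13, chr1:1273564-1273648, minus strand). Capitals mark the first 2 and last 2 bases of each intron, the GT and AG that the spliceosome cuts at.
DVL3 intron 5: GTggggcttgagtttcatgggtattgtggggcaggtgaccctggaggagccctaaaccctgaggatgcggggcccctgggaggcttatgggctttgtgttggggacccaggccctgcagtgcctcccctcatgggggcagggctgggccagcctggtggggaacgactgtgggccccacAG
DVL1 intron 12: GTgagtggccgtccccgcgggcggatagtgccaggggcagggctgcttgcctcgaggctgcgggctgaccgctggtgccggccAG
DVL1 intron 13: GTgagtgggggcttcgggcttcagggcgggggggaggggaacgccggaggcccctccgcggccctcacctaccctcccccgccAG

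The second set holds skipped exons: GSK3B exon 10 (chr3:119562102-119562200, minus strand) and CSNK1A1 exon 6 (chr5:148891357-148891435, minus strand), skipped in both lines, and DVL3 exon 4 (chr3:183882280-183882389, plus strand) and TCF7L2 exon 4 (chr10:114724315-114724383, plus strand), for which skipping rose in Y36C cells. Capitals mark the exon, and the 20 intron bases on each side are in lower case.
GSK3B exon 10: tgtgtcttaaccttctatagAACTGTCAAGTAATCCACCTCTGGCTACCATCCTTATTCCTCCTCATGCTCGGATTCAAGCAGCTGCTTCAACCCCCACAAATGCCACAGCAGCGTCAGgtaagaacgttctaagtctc
CSNK1A1 exon 6: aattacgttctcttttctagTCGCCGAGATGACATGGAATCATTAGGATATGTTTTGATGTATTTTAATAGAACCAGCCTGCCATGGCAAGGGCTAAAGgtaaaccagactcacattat
DVL3 exon 4: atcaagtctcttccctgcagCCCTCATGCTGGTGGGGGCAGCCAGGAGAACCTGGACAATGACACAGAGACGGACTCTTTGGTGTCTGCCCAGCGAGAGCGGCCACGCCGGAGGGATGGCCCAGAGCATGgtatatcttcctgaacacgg
TCF7L2 exon 4: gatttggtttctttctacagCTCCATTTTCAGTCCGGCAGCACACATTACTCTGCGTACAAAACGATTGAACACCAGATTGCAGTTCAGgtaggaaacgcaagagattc

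In WT cells E7107 raised the retention of all 10 genes, with the largest changes in TCF7L2, AXIN1, CSNK1A1 and DVL1 and the smallest in CTNNB1 and GSK3A. Across all genes 72.2% rose in the same comparison, so a rise was the common outcome and the count of members is described here by its sizes. The median change over all genes was 6.82 points, and 8 of the 10 members changed by more than that, with CTNNB1 and GSK3A below it. In Y36C cells 4 of the 10 rose, DVL1, DVL3, CTNNB1 and APC, against 47.4% of all genes. The median change over all genes was 1.05 points in Y36C cells, and DVL1 and DVL3 were the only members above it. In DMSO 0 of the 10 differed between Y36C and WT cells by limma, also at an unadjusted p of 0.05, with a lowest adjusted p of 0.523, where 0.671% of all genes were called.

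**Figure D1:**
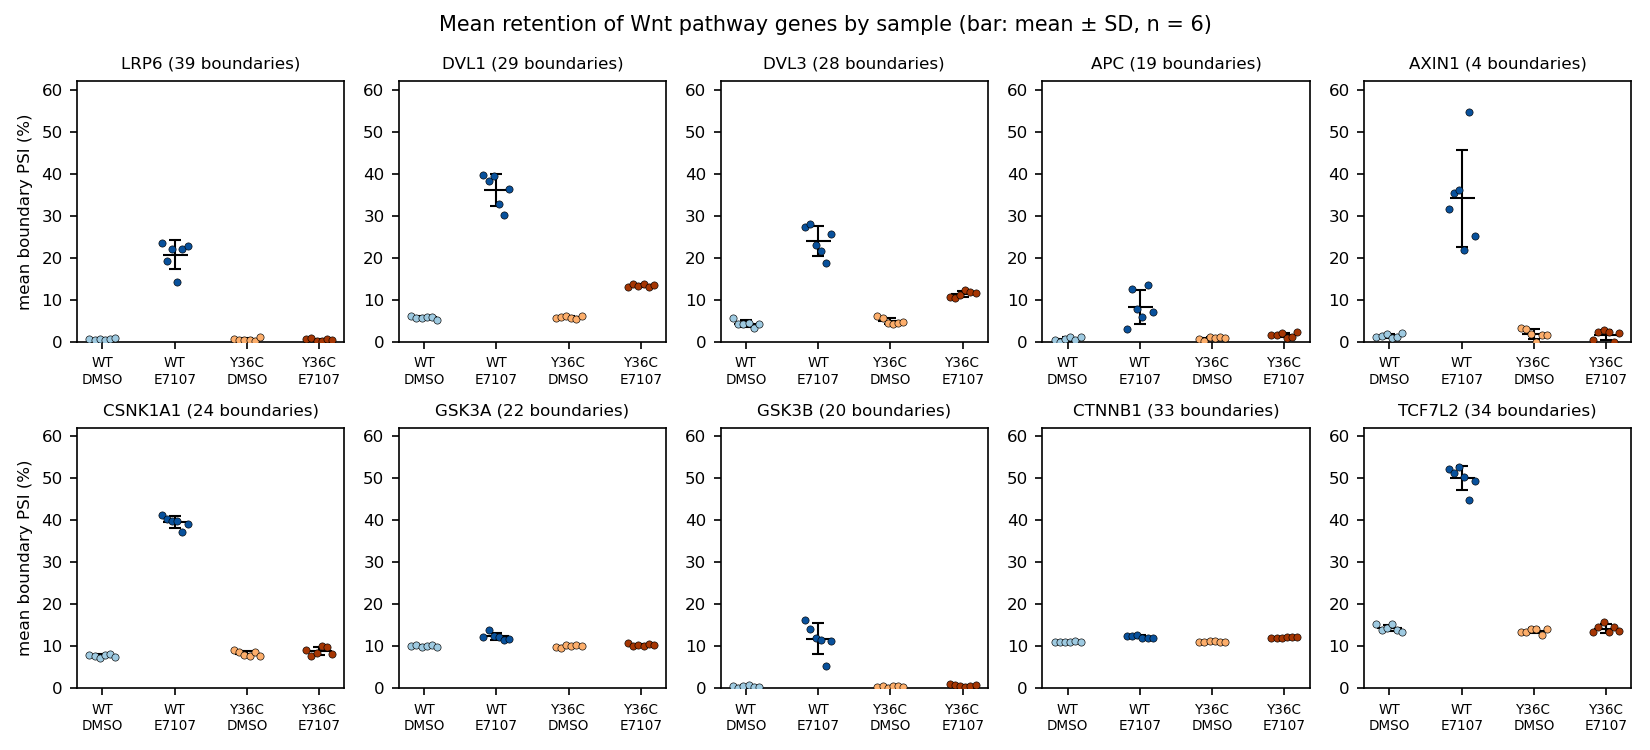
Mean boundary PSI (%, y axis) of each of the 10 genes in each sample, by group, with points for samples and the mean and SD of 6 samples. The WT E7107 samples lie above all other samples in every gene except CTNNB1, where both E7107 groups are close to 12%, and in DVL1 and DVL3 the Y36C E7107 samples lie between the DMSO and the WT E7107 samples.

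LRP6, the co-receptor that binds Wnt together with Frizzled, went from near 0 to substantial retention in WT cells and did not move detectably in Y36C cells. Its mean boundary PSI over 39 boundaries ran from 0.541% through a median of 0.656% to 1.02% in WT DMSO and from 14.4% through 22.2% to 23.5% in WT E7107. In Y36C cells it ran from 0.293% through 0.475% to 1.10% in DMSO and from 0.278% through 0.523% to 0.925% in E7107. The WT E7107 samples did not overlap any other group, and the Y36C groups lay over each other. The WT change was 20.02 points (log odds change 2.77, SE 0.10, adjusted p 2.73e-11) and the Y36C change was -0.03 points (adjusted p 0.895). The boundary that rose most in WT cells was the 5′ boundary of intron 18, which was at 0% in all 6 WT DMSO samples and ran from 14.3% through 60.0% to 87.5% in WT E7107. The same boundary was at 0% in all Y36C E7107 samples. It passed the filter only through WT E7107, so its values are a description.

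DVL1, which carries the signal from the receptor to the destruction complex, was retained in both lines, more strongly in WT cells. Its mean boundary PSI over 29 boundaries ran from 5.31% through 5.81% to 6.15% in WT DMSO and from 30.2% through 37.4% to 39.8% in WT E7107. In Y36C cells it ran from 5.43% through 5.86% to 6.10% in DMSO and from 13.02% through 13.5% to 13.9% in E7107. The 2 DMSO groups overlapped, while each E7107 group lay apart from its control and from the other E7107 group. The change was 30.4 points in WT cells (log odds change 2.08, SE 0.07, adjusted p 2.65e-11) and 7.58 points in Y36C cells (0.83, SE 0.03, adjusted p 8.82e-09), and the second was above 93.8% of all genes. DVL3, a second Dishevelled protein with the same role, had the same order. Its mean over 28 boundaries ran from 3.18% through 4.26% to 5.60% in WT DMSO, from 18.8% through 24.4% to 28.1% in WT E7107, from 4.33% through 4.66% to 6.06% in Y36C DMSO and from 10.5% through 11.4% to 12.4% in Y36C E7107. The E7107 groups were again separate from their controls and from each other. The DVL3 change was 19.8 points in WT cells (1.78, SE 0.10, adjusted p 2.59e-09) and 6.39 points in Y36C cells (0.80, SE 0.06, adjusted p 5.12e-07), above 91.6% of all genes.

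The responses of the destruction complex genes differed widely in size. CSNK1A1, the priming kinase of beta-catenin, ran from 7.14% through 7.85% to 8.15% in WT DMSO, from 37.3% through 39.9% to 41.3% in WT E7107, from 7.64% through 8.25% to 9.02% in Y36C DMSO and from 7.71% through 8.78% to 10.1% in Y36C E7107. Only the WT E7107 samples stood apart. The change was 31.9 points in WT cells (log odds change 1.95, adjusted p 3.21e-13) and 0.62 points in Y36C cells (adjusted p 0.304). GSK3B, which continues the phosphorylation of beta-catenin, had a median of 0.435% in WT DMSO and ran from 5.41% through 11.8% to 16.4% in WT E7107, without overlap. Its Y36C medians were 0.424% in DMSO and 0.675% in E7107, in overlapping ranges. The GSK3B changes were 11.4 points (2.27, adjusted p 3.86e-08) in WT cells and 0.25 points (adjusted p 0.114) in Y36C cells. GSK3A, its close relative, had a higher mean and moved less, from a median of 10.01% in WT DMSO to a range of 11.5% to 14.0% around a median of 12.2% in WT E7107. That mean is carried by other sites, since the 20 boundaries of the GSK3A reference introns were at 4.96% or less in WT DMSO. The median change of those tested was 3.02 points in WT cells and 0.11 points in Y36C cells. The GSK3A change of 2.29 points was still called in WT cells (0.21, adjusted p 0.000428), and in Y36C cells it was 0.28 points (adjusted p 0.416).

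The scaffolds APC and AXIN1 rested on fewer sites. APC, the tumour suppressor lost in most colorectal cancers, had 19 boundaries, with a median of 0.549% in WT DMSO and a range of 3.16% through 7.35% to 13.6% in WT E7107. In Y36C cells APC ran from 0.257% through 0.907% to 1.26% in DMSO and from 1.01% through 1.62% to 2.30% in E7107, so these 2 groups overlapped at their edges. The change was 7.66 points in WT cells (log odds change 1.77, adjusted p 1.13e-05) and 0.75 points in Y36C cells (0.34, adjusted p 0.0301), and neither was called when the median over boundaries replaced the mean (adjusted p 0.401 and 1.00). AXIN1, whose level limits the complex, had only 4 boundaries with reads in all samples. AXIN1 had a median of 1.30% in WT DMSO and ran from 21.8% through 33.5% to 54.8% in WT E7107, without overlap. The AXIN1 change was 32.7 points in WT cells (3.06, adjusted p 1.74e-08) and -0.17 points in Y36C cells (adjusted p 0.846), where the medians were 1.69% in DMSO and 2.22% in E7107.

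The effectors TCF7L2 and CTNNB1 were at opposite ends. TCF7L2, the transcription factor that beta-catenin binds, ran from 13.4% through 14.2% to 15.3% in WT DMSO and from 44.9% through 50.9% to 52.7% in WT E7107, while its Y36C medians were 13.8% in DMSO and 14.1% in E7107. Only WT E7107 stood apart, and the change of 35.8 points (log odds change 1.74, adjusted p 1.51e-11) set against 0.55 points in Y36C cells (adjusted p 0.425). CTNNB1, which encodes beta-catenin itself, ran from 10.9% through 11.1% to 11.3% in WT DMSO, from 11.9% through 12.3% to 12.8% in WT E7107, from 10.97% through 11.1% to 11.2% in Y36C DMSO and from 12.02% through 12.1% to 12.3% in Y36C E7107. The E7107 samples of both lines lay above all DMSO samples and over each other. The CTNNB1 change was 1.23 points in WT cells (0.11, adjusted p 0.00780), above only 25.6% of all genes, and 1.04 points in Y36C cells (0.09, adjusted p 0.00555). The difference between these responses was -0.02 in log odds (SE 0.03, adjusted p 0.663). The CTNNB1 mean is carried by alternative sites inside exons, whose boundaries reach 99.0%, and the 28 boundaries of its reference introns were at 1.47% or less in WT DMSO. With the median over boundaries in place of the mean, CTNNB1 did differ between the lines, by -0.78 in log odds (adjusted p 5.54e-09), and its Y36C change was not called (adjusted p 0.482).

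The test of the difference between the responses of the lines was negative, meaning a smaller response in Y36C cells, for 9 of the 10 genes, all but CTNNB1, where 60.6% of all genes were called in that direction. Under E7107 the same 9 genes were lower in Y36C than in WT cells, against 64.8% of all genes. With the median over boundaries in place of the mean, APC lost both calls (adjusted p 0.404 and 0.400) and CTNNB1 gained both (adjusted p 5.54e-09 and 3.69e-07). The largest differences between responses in log odds, with the mean, were those of AXIN1 (-3.14), LRP6 (-2.79) and GSK3B (-2.11), the smallest that of GSK3A (-0.18).

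At single boundaries, 171 of the 197 tested in WT cells rose and 0 fell, where 59.9% of all tested boundaries rose and 4.62% fell. In Y36C cells 42 of 182 rose and 1 fell, against 16.8% and 0.74% of all boundaries. Many of the boundaries tested in LRP6, GSK3B and AXIN1 in WT cells passed the filter only through their values in WT E7107, so these counts are not a share of all boundaries. In DMSO 0 of 173 boundaries were called by limma, with 14 at an unadjusted p under 0.05, 0 called under any alternative run and a lowest adjusted p of 0.335, where 0.0637% of all boundaries were called. Under E7107, Y36C cells were lower than WT cells at 157 and higher at 8 of 198 boundaries, against 54.1% and 9.63% of all boundaries. The difference between the responses was negative at 153 and positive at 6 of 216 boundaries, against 42.3% and 6.62% of all boundaries. Without regard to any filter, all 6 E7107 samples lay above all 6 DMSO samples at 140 of 249 member boundaries of annotated splice sites in WT cells and at 26 of 284 in Y36C cells, against 31.4% and 5.4% of all such boundaries with reads in the 12 samples. Of the reference introns alone, 130 of 229 and 23 of 259 boundaries had no overlap, and of those 23, 13 were in DVL1, 4 each in DVL3 and CTNNB1, and 1 each in TCF7L2 and CSNK1A1.

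The reference introns of the 10 genes differed in how far they were retained in WT E7107 cells. Over boundaries with reads in all 6 samples the median PSI was 37.6% in TCF7L2, 35.5% in DVL1, 34.1% in AXIN1, 25.1% in CSNK1A1 and 22.3% in DVL3. LRP6 followed with 19.9%, then GSK3B with 9.56%, APC with 5.21%, GSK3A with 4.75% and CTNNB1 with 1.77%. Within TCF7L2 the range was the widest, from 4.57% to 80.5%, and within CTNNB1 the narrowest, from 0.88% to 4.47%. In GSK3B the 5′ boundary of intron 9 was the highest, at 0.515% ± 1.26 in WT DMSO and 41.5% ± 7.68 in WT E7107 (SD, n = 6), with 0.42% ± 0.65 in Y36C E7107. In AXIN1 the 5′ boundary of intron 2 was at 0.667% ± 1.03 in WT DMSO, 50.8% ± 16.2 in WT E7107 and 0% in all Y36C E7107 samples. Both boundaries passed the filter only through WT E7107, so no test is given for them. In GSK3A the 5′ boundary of intron 1 led, at 2.58% ± 0.79 and 10.8% ± 4.54 in the WT groups (adjusted p 0.000418) and 2.21% ± 1.17 in Y36C E7107.

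**Figure D2:**
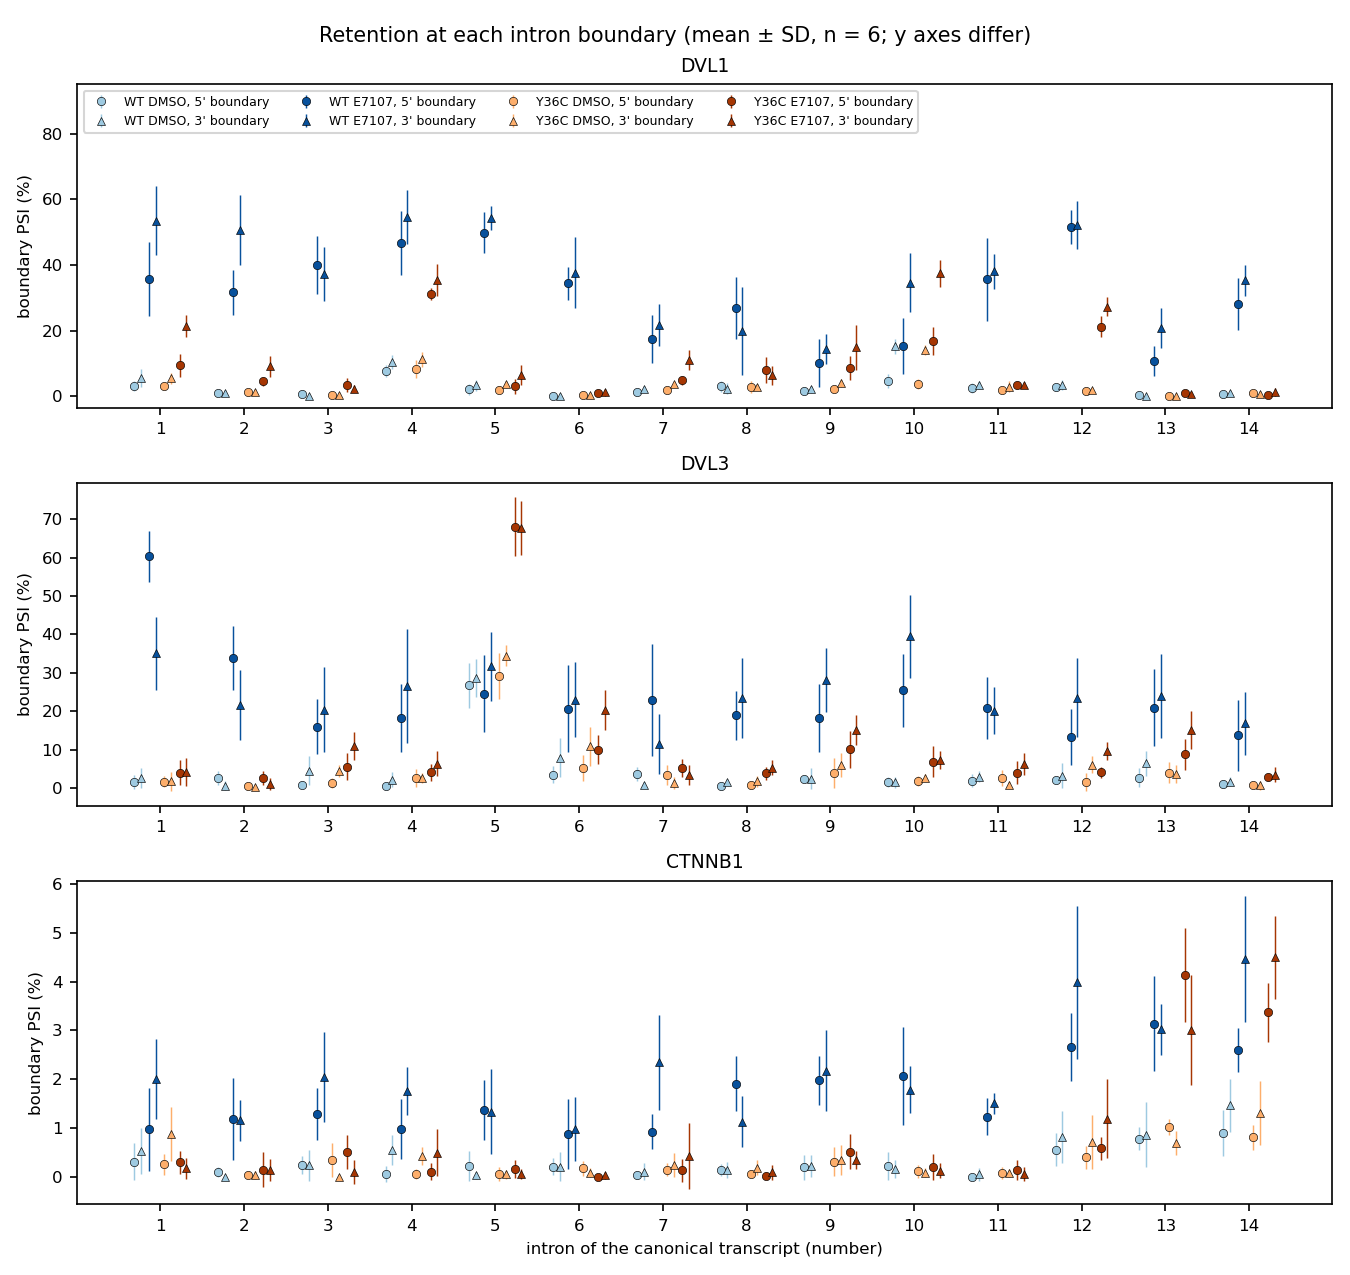
Boundary PSI (%, y axis, with a different range for each gene) at every reference intron (x axis, by intron number) of DVL1, DVL3 and CTNNB1, as the mean and SD of 6 samples in the 4 groups, with circles for 5′ and triangles for 3′ boundaries. Y36C E7107 exceeds WT E7107 clearly at DVL3 intron 5, it follows WT E7107 at lower values at DVL1 introns 4 and 12, and all CTNNB1 values stay below 5%.

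Most of the retention that remained in Y36C cells was in the Dishevelled genes: 17 of 28 tested boundaries of reference introns rose in DVL1 and 13 of 28 in DVL3, compared with 8 of 99 in the other 8 genes, where 16.8% of all boundaries rose. The count in the other 8 genes was below that share, but the share also covers boundaries outside reference introns, so the 2 sets differ. These boundaries share transcripts and introns, so no test was made between the genes. In DVL1 the 3′ boundary of intron 12 ran from 1.52% through 3.09% to 5.92% in WT DMSO and from 42.4% through 51.6% to 61.5% in WT E7107. In Y36C cells it ran from 1.56% through 1.81% to 3.25% in DMSO and from 24.9% through 26.1% to 32.8% in E7107. Both E7107 groups lay far above their controls without overlap (log odds changes 3.23 with adjusted p 3.07e-08 and 2.54 with adjusted p 9.86e-07), and the Y36C samples lay below the WT samples. The difference between the responses was -0.69 (adjusted p 0.0157) but was not called with an offset of 0.1 points in the log odds (adjusted p 0.143). Intron 13, next to it and also 85 bases long, reached 20.8% at its 3′ boundary in WT E7107 (adjusted p 1.45e-08) and 0.741% in Y36C E7107 (adjusted p 0.139). As the sequences above show, both are short and GC-rich, with 75.3% and 77.6% GC. Intron 5 of DVL1 had a similar split, with its 3′ boundary at 54.2% ± 3.70 in WT E7107 and 6.33% ± 3.05 in Y36C E7107, where it was not called (adjusted p 0.278).

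At DVL1 introns 9 and 10 the responses of the lines were close. The 3′ boundary of intron 10 ran from 12.5% through 15.3% to 18.3% in WT DMSO, from 26.2% through 31.6% to 46.6% in WT E7107, from 12.1% through 13.9% to 16.6% in Y36C DMSO and from 31.1% through 38.7% to 41.8% in Y36C E7107. Both E7107 groups were above both DMSO groups and overlapped each other, and a difference between the responses was not called (adjusted p 0.455). The 3′ boundary of intron 9 was at 14.4% in WT E7107 and 14.9% in Y36C E7107, again with no called difference between the responses (adjusted p 0.234). These introns were named after their values were seen.

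DVL3 intron 5 was the 1 reference intron of the 10 genes where the response was larger in Y36C cells at both boundaries. Its 5′ boundary ran from 20.7% through 25.3% to 35.9% in WT DMSO and from 8.33% through 27.2% to 33.3% in WT E7107, and from 20.8% through 29.1% to 38.3% in Y36C DMSO and from 58.8% through 68.7% to 79.3% in Y36C E7107. The 3 other groups overlapped, and all 6 Y36C E7107 samples were above them. The Y36C change was 38.7 points (log odds change 1.63, SE 0.19, adjusted p 0.000157), the WT change was not called (adjusted p 0.638), and the difference between the responses was 1.81 (SE 0.34, adjusted p 0.000134). The 3′ boundary showed the same, with means of 28.8% in DMSO and 31.7% in E7107 for WT cells and 34.5% and 67.6% for Y36C cells (difference between responses, adjusted p 0.000442). This intron is 181 bases long, has 66.3% GC, and was partly retained without drug. Intron 1 of the same gene behaved in the opposite way, with a 5′ boundary of 1.63% ± 1.85 in WT DMSO, 60.3% ± 6.69 in WT E7107 (adjusted p 2.96e-07) and 4.10% ± 3.26 in Y36C E7107 (adjusted p 0.436).

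**Figure D3:**
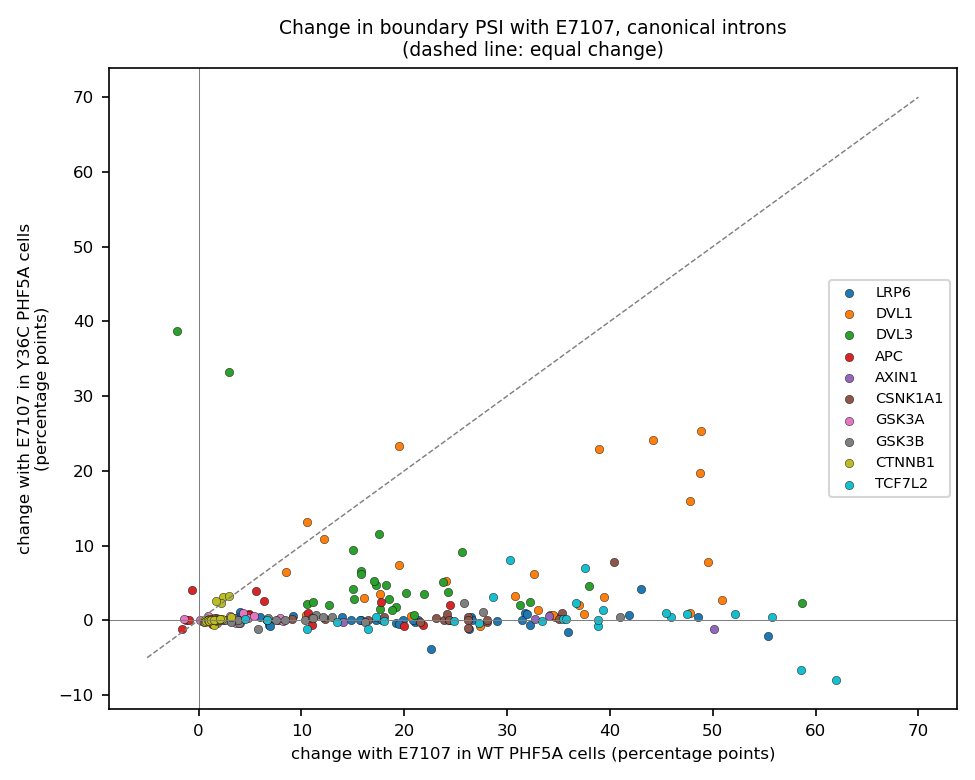
Change in boundary PSI with E7107 (percentage points) in WT cells (x axis) against that in Y36C cells (y axis), 1 point per boundary of a reference intron with reads in all 24 samples, with a dashed line where both are equal. Most points lie along the x axis near a Y36C change of 0, the DVL1 and some DVL3 points lie between that axis and the line, and the 2 boundaries of DVL3 intron 5 lie far above it.

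DVL1 and DVL3 had the shortest introns of the 10 genes, with median lengths of 205 and 190 bases. The other genes ranged from a median of 474.5 bases in CTNNB1 to 18232 in GSK3B. The median intron GC was highest in DVL1, at 70.4%, while that of DVL3, at 56.0%, was close to AXIN1 with 55.3% and GSK3A with 54.0%. Over the 155 boundaries tested in Y36C cells, the change had a Spearman rho of 0.39 with intron GC and -0.31 with intron length. Within the other 8 genes (99 boundaries) the same values were -0.02 and 0.01, and within DVL1 and DVL3 together (56 boundaries) they were 0.16 and -0.22, so the pooled values lie mainly between genes. Boundaries of one gene share transcripts and base composition, and these values are a description only. The 17 DVL1 boundaries that rose in Y36C cells had a median intron length of 204 bases and the other 11 had 633. In DVL3 the medians were 180 bases for 13 boundaries and 540 for 15.

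Within CTNNB1 the boundaries that responded in Y36C cells were those of its last 2 introns. The 5′ boundary of intron 13 ran from 0.442% through 0.793% to 1.16% in WT DMSO, from 1.74% through 3.08% to 4.71% in WT E7107, from 0.784% through 1.03% to 1.27% in Y36C DMSO and from 3.00% through 4.20% to 5.23% in Y36C E7107. Both E7107 groups were above both DMSO groups and overlapped each other (adjusted p 0.000256 in WT and 0.000276 in Y36C cells), and all 4 boundaries of introns 13 and 14 were called in both lines. The 3′ boundary of intron 12 rose in WT cells from 0.823% ± 0.53 to 3.98% ± 1.57 (adjusted p 0.00243) and was at 1.19% ± 0.81 in Y36C E7107 (adjusted p 0.542), but the difference between these responses was not called (adjusted p 0.0531). In the last exon, exon 15, an alternative 5′ splice site had a boundary PSI of 27.2% ± 2.57 with DMSO and 25.7% ± 2.65 with E7107 in WT cells, and of 27.8% ± 2.46 and 38.4% ± 1.97 in Y36C cells. The boundary rose by 10.6 points in Y36C cells (adjusted p 0.00928), so that less of the RNA was spliced from that site, and the difference between the responses was called (adjusted p 0.00176). The Y36C call was not made with an offset of 0.1 points (adjusted p 0.0716).

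At spliced junctions, 26 of 353 tested rose and 202 fell in WT cells, against 6.85% and 35.8% of all tested junctions, and 41 of 407 rose and 75 fell in Y36C cells, against 6.21% and 12.1%. Under E7107, Y36C cells were higher than WT cells at 199 and lower at 36 of 376 junctions, against 35.4% and 11% of all junctions. The difference between the responses was positive at 183 and negative at 32 of 428, against 26.4% and 7.18%. Since the outcomes at a site sum to 100%, a rise in retention lowers the junctions of the same site. In DMSO 0 of 394 junctions were called by limma, with 25 at an unadjusted p under 0.05, 0 called under any alternative run and a lowest adjusted p of 0.229, where 0.0525% of all junctions were called. Junctions that span at least 1 annotated exon were counted separately, again once for each splice site measured. Of these, 22 of 108 rose in WT cells and 33 of 129 in Y36C cells, against 17.2% and 22.4% of all such junctions, shares close to the background. Another 44 fell in WT cells and 15 in Y36C cells, against 17.2% and 4.11%. For 55 of 156 the difference between the responses was positive and for 19 it was negative, against 21.8% and 9.12% of all such junctions. In DVL1, 6 of 12 and in DVL3, 3 of 10 such junctions rose in Y36C cells. In WT cells only 2 of DVL1 and 4 of DVL3 could be tested, and 0 of these rose. Skipping of DVL1 exon 2 and DVL3 exon 4, described below, passed the filter in Y36C cells only through Y36C E7107. These counts therefore do not compare the lines.

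**Figure D4:**
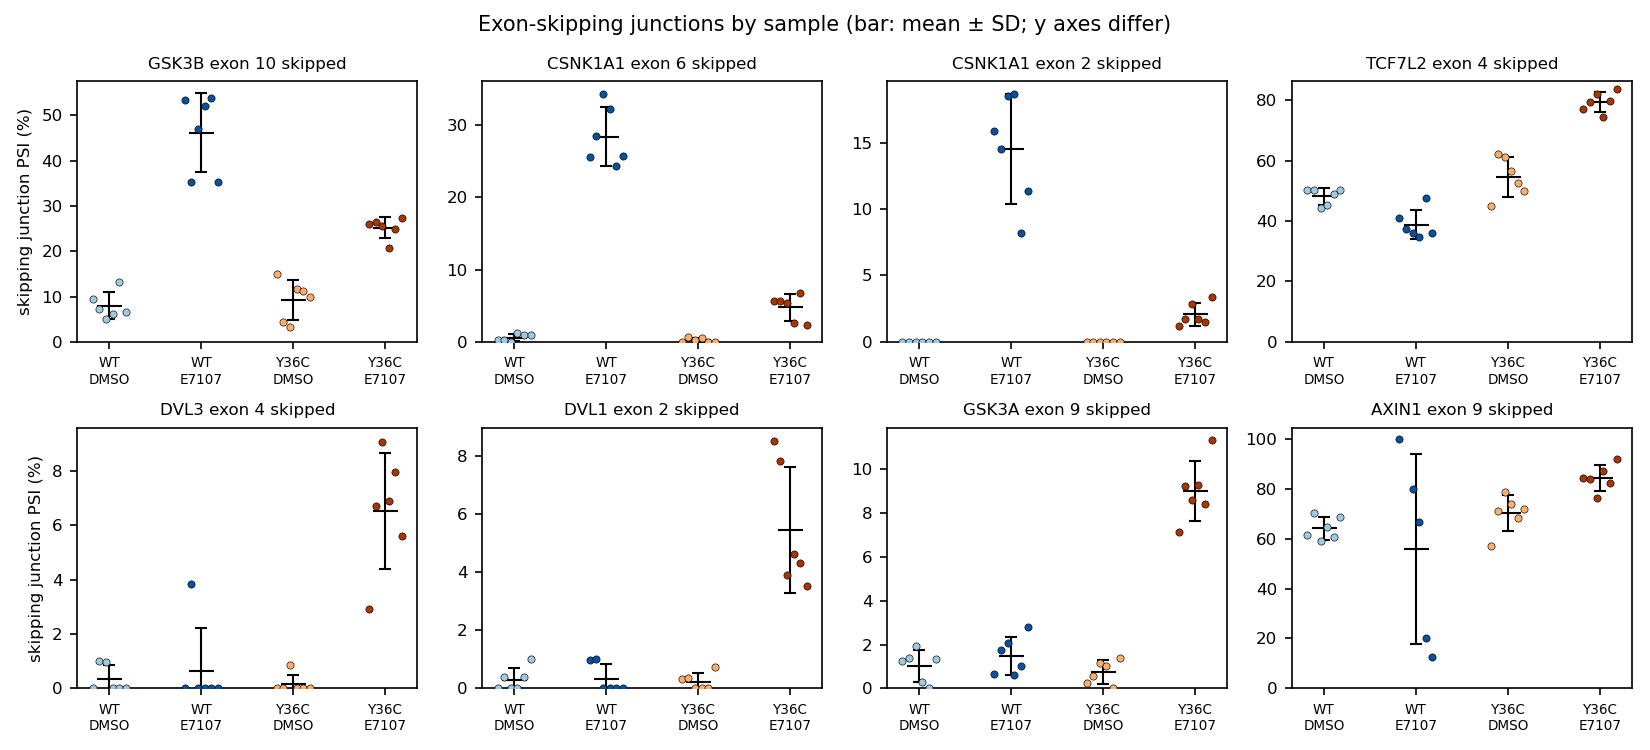
PSI (%, y axis) of 8 exon-skipping junctions at their 3′ splice site in each sample of the 4 groups, with points for samples. Skipping of GSK3B exon 10 and CSNK1A1 exons 6 and 2 is highest in WT E7107, and skipping of TCF7L2 exon 4, DVL3 exon 4, DVL1 exon 2 and GSK3A exon 9 is highest in Y36C E7107.

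Some exons were skipped more with E7107 in both lines, and most in WT cells. Skipping of GSK3B exon 10, which has 99 bases and keeps the reading frame, ran from 5.05% through 6.82% to 13.2% in WT DMSO, from 35.3% through 49.5% to 53.8% in WT E7107, from 3.37% through 10.5% to 14.9% in Y36C DMSO and from 20.7% through 25.8% to 27.3% in Y36C E7107. The DMSO groups overlapped and each E7107 group stood apart. The changes were 38.2 points in WT cells (log odds change 2.23, SE 0.21, adjusted p 1.33e-06) and 15.95 points in Y36C cells (1.23, SE 0.24, adjusted p 0.00355), and the responses differed (-0.999, adjusted p 0.0133). CSNK1A1 exon 6, of 79 bases, was skipped in at most 1.16% of reads in DMSO. Its skipping ran from 24.3% through 27.1% to 34.3% in WT E7107 and from 2.35% through 5.51% to 6.82% in Y36C E7107. The comparison with DMSO in each line passed the filter only with its E7107 samples, so no test is given for either. All 4 comparisons of these E7107 groups with a DMSO group were free of overlap, and the responses differed (adjusted p 3.73e-06), though not with an offset of 0.1 points (adjusted p 0.0949). CSNK1A1 exon 2 was at 0% in all 12 DMSO samples, at 8.21% through 15.2% to 18.7% in WT E7107 and at 1.21% through 1.72% to 3.41% in Y36C E7107. A junction that joins GSK3B exon 1 to exon 9 and leaves out exons 2 to 8 was at 0% in every sample of the other 3 groups and at 21.1% through 29.7% to 58.3% in WT E7107, the only group through which it passed the filter, so no test is given.

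Other exons were skipped more in Y36C cells. DVL3 exon 4, of 110 bases, had a median skipping of 0% in the other 3 groups, with a highest value of 3.85%, and ran from 2.91% through 6.81% to 9.09% in Y36C E7107. The single WT E7107 sample at 3.85% overlapped the lowest Y36C E7107 samples. The Y36C change was 6.39 points, given without a test because the junction passed the filter only through Y36C E7107. DVL1 exon 2, of 70 bases, was at most 1.02% in the other 3 groups and ran from 3.50% through 4.45% to 8.51% in Y36C E7107, without overlap. The Y36C comparison passed the filter only through Y36C E7107, so no test of the DVL1 change is given. At the 5′ splice site of this junction the difference between the responses was 1.68 in log odds (adjusted p 6.80e-05). GSK3A exon 9, of 187 bases, was at most 2.82% in the other 3 groups and ran from 7.14% through 8.92% to 11.3% in Y36C E7107, also without overlap. Here too the Y36C comparison passed the filter only with Y36C E7107, so no test of the GSK3A change is given. At the 5′ splice site of the GSK3A junction the difference between the responses was 1.73 in log odds (adjusted p 0.000132).

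Introns beside the DVL3 and DVL1 exons were retained in WT E7107 cells. The 5′ boundary of DVL3 intron 4, just downstream of exon 4, was at 18.3% in WT E7107 and 4.18% in Y36C E7107, and the 3′ boundary of DVL1 intron 1, just upstream of exon 2, was at 53.5% and 21.4%. Both boundaries rose in WT cells (adjusted p 3.30e-06 and 7.77e-07). At the boundaries that adjoin GSK3A exon 9 no such rise was called. The 3′ boundary of intron 8 was at 3.49% ± 1.38 in WT DMSO and 6.52% ± 3.92 in WT E7107 (adjusted p 0.193), and the 5′ boundary of intron 9 at 1.05% ± 0.32 and 2.00% ± 1.01 (adjusted p 0.0865). The far end of intron 9, its 3′ boundary, was higher in WT E7107. It ran from 0% through 1.14% to 2.57% in WT DMSO and from 4.11% through 6.58% to 8.09% in WT E7107, without overlap.

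TCF7L2 exon 4, an alternative exon of 69 bases that keeps the frame, had a skipping PSI that moved in opposite directions in the lines. Its skipping at the 3′ splice site ran from 44.2% through 49.5% to 50.3% in WT DMSO, from 34.8% through 36.6% to 47.7% in WT E7107, from 45.0% through 54.6% to 62.3% in Y36C DMSO and from 74.6% through 79.5% to 83.7% in Y36C E7107. The Y36C E7107 samples were above all others, and the WT groups overlapped. At the 5′ splice site skipping fell by 10.9 points in WT cells (adjusted p 0.0235) and rose by 25.9 points in Y36C cells (log odds change 1.15, SE 0.12, adjusted p 8.33e-05), and the responses differed by 1.60 (adjusted p 8.92e-08). A skipping PSI is a share of all reads at its site, unspliced reads included. All 26 tested boundaries of TCF7L2 reference introns rose in WT cells. Whether the WT fall in skipping reflects retention or more inclusion of the exon was not tested. Joint skipping of TCF7L2 exons 13 and 14, near the end of the gene, rose in both lines, from 25.1% ± 3.06 to 37.4% ± 6.27 in WT cells (adjusted p 0.00764) and from 26.6% ± 3.09 to 43.0% ± 2.99 in Y36C cells (adjusted p 0.00130). A difference between those responses was not called (adjusted p 0.513).

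The scaffolds again gave less certain values. AXIN1 exon 9, an in-frame exon of 108 bases, was skipped in 57.1% through 71.5% to 78.6% of reads in Y36C DMSO and 76.2% through 84.1% to 91.8% in Y36C E7107, ranges that overlap slightly. These values are from the 3′ splice site, where the change was 14.1 points (log odds change 0.82, adjusted p 0.0195). At the 5′ splice site of the same junction the Y36C change was 5.99 points (0.43) and was not called (adjusted p 0.312). In WT E7107 only 5 samples had reads at the 3′ splice site, spread from 12.5% to 100%, and the WT change was not tested. In APC a junction that joins the start of the gene past its first coding exon had a median of 0% in both DMSO groups. It ran from 9.09% through 16.8% to 27.3% in Y36C E7107, overlapping the highest Y36C DMSO value of 14.3%. It passed the filter only through Y36C E7107, so no test is given for the Y36C change. In WT E7107 4 samples were at 0% and the highest was at 66.7%, a mean of 15.3% close to that of Y36C E7107, and the WT change was not tested. In CSNK1A1 the direct junction between the exons on either side of an alternative exon in intron 4 fell in WT cells from 88.9% ± 2.04 to 65.3% ± 3.76 (adjusted p 1.85e-06), and the boundary of the 5′ splice site of that exon rose from 12.8% ± 6.31 to 78.9% ± 6.28 (adjusted p 8.63e-07). In Y36C cells the same junction, measured at its 3′ splice site, went the other way, from 88.5% ± 2.93 to 93.7% ± 2.31 (adjusted p 0.0423). That call was not made with an offset of 0.1 points (adjusted p 0.0851) or with no filter on PSI (adjusted p 0.0589). At its 5′ splice site the junction was at 88.9% ± 2.95 and 92.9% ± 0.95 in Y36C cells, and no change was called (adjusted p 0.0608). The boundary rose in Y36C cells from 8.34% ± 4.96 to 22.9% ± 9.41 (adjusted p 0.0205).

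Alternative exons and sites inside the introns of these genes also showed retention in WT cells. At an alternative 3′ splice site in CSNK1A1 intron 2 the boundary ran from 14.3% through 22.3% to 28.6% in WT DMSO and from 93.1% through 97.3% to 98.6% in WT E7107 (adjusted p 1.94e-08), the largest rise in the gene. The Y36C samples were scattered, with 25.6% ± 24.6 in DMSO and 31.6% ± 12.6 in E7107 (adjusted p 0.464). At an alternative 3′ splice site in TCF7L2 intron 14 the boundary rose from 13.6% ± 4.77 to 91.5% ± 3.72 in WT cells (adjusted p 2.40e-08), and it was at 17.7% ± 5.04 and 27.3% ± 12.7 in Y36C cells (adjusted p 0.518). The junction from exon 12 into that site ran from 67.9% through 77.0% to 78.7% in WT DMSO and from 0% through 5.67% to 6.82% in WT E7107, and the difference between the responses was 3.83 in log odds (adjusted p 7.95e-08). In the Y36C line the same junction was at 71.5% ± 4.84 and 65.7% ± 11.3. In GSK3B, joining of exon 8 directly to exon 9, measured at the 3′ splice site, fell from 89.0% ± 4.54 to 38.4% ± 15.5 in WT cells (adjusted p 1.35e-05) and was at 92.9% ± 2.51 and 90.6% ± 3.32 in Y36C cells (adjusted p 0.415). Measured at the 5′ splice site, it was at 90.9% ± 2.68 and 83.75% ± 19.0 in WT cells, and no change was called (adjusted p 0.891). The junction from the alternative GSK3B exon between exons 8 and 9 also fell in WT cells at that 3′ splice site, from 8.22% ± 3.64 to 2.45% ± 2.77 (adjusted p 0.0203). In APC the junction of exon 9 to exon 10, measured at the 5′ splice site, was at 92.0% ± 8.51 in Y36C DMSO and 98.0% ± 4.80 in Y36C E7107 (adjusted p 0.248), and only 4 WT E7107 samples had reads there.

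Some boundaries hardly moved. At an alternative 5′ splice site in CTNNB1 exon 1 the boundary was between 98.1% and 99.7% in all 24 samples. In GSK3A the 5′ boundary of intron 7 was at 0.294% ± 0.26 in WT DMSO and 0.44% ± 0.54 in WT E7107 (adjusted p 0.786), and the 3′ boundary of APC intron 13 was at 3.05% ± 1.54 and 2.38% ± 5.83 (adjusted p 0.207). The least change in WT cells at a tested boundary of LRP6 was from 0.427% ± 1.05 to 17.7% ± 6.51 at the 5′ boundary of intron 20, a boundary that passed the filter only through WT E7107 and is given without a test.

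Among the wider pathway, a list of 110 genes that does not hold the 10 members, 60 genes had at least 4 boundaries. Retention of 46 rose and of 4 fell in WT cells, the latter being LRP5, RBX1, TLE2 and CD44, and 33 rose and 2, FZD3 and SKP1, fell in Y36C cells. Of all genes 72.2% rose in WT and 47.4% in Y36C cells, so both counts of rises were near the background. The median change was 11.8 points in the WT line and 1.04 points in the Y36C line, beside 6.82 and 1.05 over all genes. By role, 20 of 23 transducers and destruction complex genes rose in WT cells, with 13 of 17 nuclear partners of beta-catenin, 6 of 9 receptors and membrane regulators, 4 of 6 ligands and 3 of 5 targets. In Y36C cells the counts were 15, 9, 3, 4 and 2, and with so few genes in a role these are read only beside the same 72.2% and 47.4% of all genes. Among the targets in that list, CCND1 changed by 51.9 points in the WT line and 1.61 in the Y36C line and MYC by 24.7 and 0.57 points. In DMSO 1 gene was higher in Y36C cells, DVL2 (by 2.01 points, adjusted p 0.0226), and 1 was lower, PPP2R5D (by 0.66 points, adjusted p 0.0491).

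DVL2, the remaining Dishevelled gene, thus differed between the lines in DMSO, and under E7107 a difference was not called (adjusted p 0.367). It ran from 6.73% through 7.16% to 7.69% in WT DMSO, from 21.5% through 24.0% to 29.3% in WT E7107, from 8.64% through 9.15% to 9.74% in Y36C DMSO and from 19.8% through 23.0% to 26.2% in Y36C E7107. The DMSO groups did not overlap and the E7107 groups did. The change was 17.5 points in WT cells (log odds change 1.35, SE 0.06, adjusted p 6.75e-10) and 14.0 points in Y36C cells (1.03, SE 0.06, adjusted p 1.02e-07), and the responses differed by -0.32 (adjusted p 0.00199). DVL2 and the genes named from the wider list were chosen after their values were seen.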

How the data were processed

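RNA-seq of poly(A) RNA from 24 samples in 4 groups was used. The deposited values are percentages made by the authors, the percent spliced in of each junction or boundary within its splice site, 1 file per sample. STAR and hg19 (GRCh37) are named in the submitters' processing notes. Replicates were not pooled. Of 1830076 measurements per file, 1854 without a strand or on the mitochondrial genome were left out. Whether boundary reads were counted by strand is not given in the sources used here, and genes on the same strand overlap APC, GSK3A, GSK3B, CSNK1A1 and TCF7L2. Introns and exons followed the GENCODE reference transcript of each gene.

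Log odds, ln((PSI + 1)/(100 - PSI + 1)), were fitted with limma 3.58.1 (R 4.3.3) across all measurements that passed the filter, with Benjamini-Hochberg adjustment over all of them. WT, Y36C, DMSO and E7107 comparisons used the 12 samples of their 2 groups, and the difference between responses used all 24. Each gene's largest rise at a boundary and at an exon-skipping junction in each line, its smallest boundary change, the largest differences between responses and alternative exons held by the annotation were named, with others said to be named from their values. The members and the pathway, marker and event lists were chosen with earlier results of these data known. 1 marker symbol, PECAM1, was not matched, and AES was matched as TLE5 through RefSeq synonyms. Scripts were tested on simulated data. Python 3.11.15, pandas 2.3.3 and Matplotlib 3.10.9 were used.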

Additional observations from a re-analysis of the deposited data

Results flagged for a closer look

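The response of mean retention to E7107 differed between Y36C and WT cells, by the test of the difference itself, in 9 of the 10 genes. In log odds, Y36C response minus WT response, the values were -3.14 for AXIN1, -2.79 for LRP6, -2.11 for GSK3B and -1.88 for CSNK1A1. They were -1.69 for TCF7L2, -1.42 for APC, -1.25 for DVL1, -0.98 for DVL3 and -0.18 for GSK3A. With the median over boundaries in place of the mean, the APC difference was -0.42 and was not called (adjusted p 0.404). Of all genes, 60.6% were called in this direction. No sample of any group lay far from the others of its group in mean retention by Dixon's test (0 of 40 groups), where chance gives about 1 in 20.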

How the results depend on the processing

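Of the counts of called members, most changed by less than 1.5 times under every alternative run. With a change of at least 10 percentage points also required, the boundaries called in Y36C cells went from 43 to 14. The junctions called went from 116 to 44 in Y36C cells, from 235 to 144 between the lines under E7107, and from 215 to 140 for the difference between the responses. With the median in place of the mean over boundaries, 2 in place of 4 genes changed in Y36C cells. With the replicate number as a block, 33 boundaries and 95 junctions were called in Y36C cells. The block is not a pairing given by the labels: deviations of same-numbered samples correlated between -0.00376 and 0.00608 over 4 comparisons, and 6 of 24 samples correlated best with their own number. No single measurement or gene named reversed, with 19 calls lost and 7 gained over all settings; among them, skipping of AXIN1 exon 9 in Y36C cells had an adjusted p of 0.0603 with the block, the boundary of the alternative site in CTNNB1 exon 15 had 0.0687, and the direct CSNK1A1 junction past its alternative exon had 0.0695. The restriction to annotated splice sites was chosen after seeing the data. The causes of these changes were not tested. Read numbers are unknown, so a PSI of 0 or 100% may rest on few reads, most of all in APC and AXIN1 in WT E7107.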
